A study of Mus musculus with 12 samples.

Results

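Retinoic acid is made from vitamin A in a pair of oxidation steps. Retinol dehydrogenases such as Rdh10 turn retinol into retinaldehyde, a step that Dhrs3 runs in reverse, and the retinaldehyde dehydrogenases Aldh1a1, Aldh1a2 and Aldh1a3 oxidize retinaldehyde to retinoic acid. Inside the cell retinoic acid is bound by the carriers Crabp1 and Crabp2, and in the nucleus it activates receptors such as Rarb and Rarg, which pair with retinoid X receptors on DNA. In epithelia the pathway is known for steering differentiation.

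These 9 genes were followed in the stomachs of Car9-/- and wild-type mice, over every probe that the platform's annotation assigns to one of them. They were 9 of 19406 gene symbols and 14 of 46643 probes on the Illumina Mouse-6 array, and 9 of the 14 were detected on enough arrays to be tested. The list was selected on the signal of Aldh1a3, which was higher in each Car9-/- stomach. Its genotype difference is therefore given below as a description without a test, and the question asked was whether the other 8 genes differed too.

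Specimens from the body of the stomach came from 6 Car9-/- mice, in which the gene of carbonic anhydrase IX is disrupted in the whole animal, and 6 wild-type mice, all C57BL/6. Each genotype had 3 males and 3 females. Ages were 10 to 12 months for Car9-/- and 8 to 12 months for wild-type animals. RNA of each mouse was run on 1 array.

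Car9 signals of the genotypes did not overlap, and the Car9-/- mean was lower. The log2 signal of Car9 fell by 1.67 at probe 2340128 (adjusted p = 3.8e-07 from limma) and dropped by 1.18 at probe 50278 (adjusted p = 9.7e-04 from limma). Each array detected 18141 to 20276 probes. Median raw signals were 75.6 to 76.9 on the arrays of wild-type mice 4, 5 and 6 and 83.3 to 101.4 on the other 9. Markers of the glandular stomach (Atp4a of parietal cells, Pgc of chief cells and Muc5ac of surface cells) were detected on all 12 arrays. Krt5 and Krt14 of stratified squamous epithelium were detected on 7 arrays, and the pancreatic trypsin gene Prss1 on all 12. Values below are log2 signals after quantile normalization, and a probe counts as detected on an array where its detection p was under 0.01. The 20751 probes detected on at least 3 arrays were tested together with limma, with Benjamini-Hochberg adjustment and a threshold of 0.05. At this threshold 5.34% of them were higher and 5.25% lower in Car9-/- mice.

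Of the 8 tested probes of the other genes, Rdh10 rose, Aldh1a1 fell and 6 did not pass the test. The median difference of the 8 was 0.06 on the log2 scale, against -0.0007 over all tested probes. The plot of the values in each mouse shows all 9 tested probes.

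**Figure D1:**
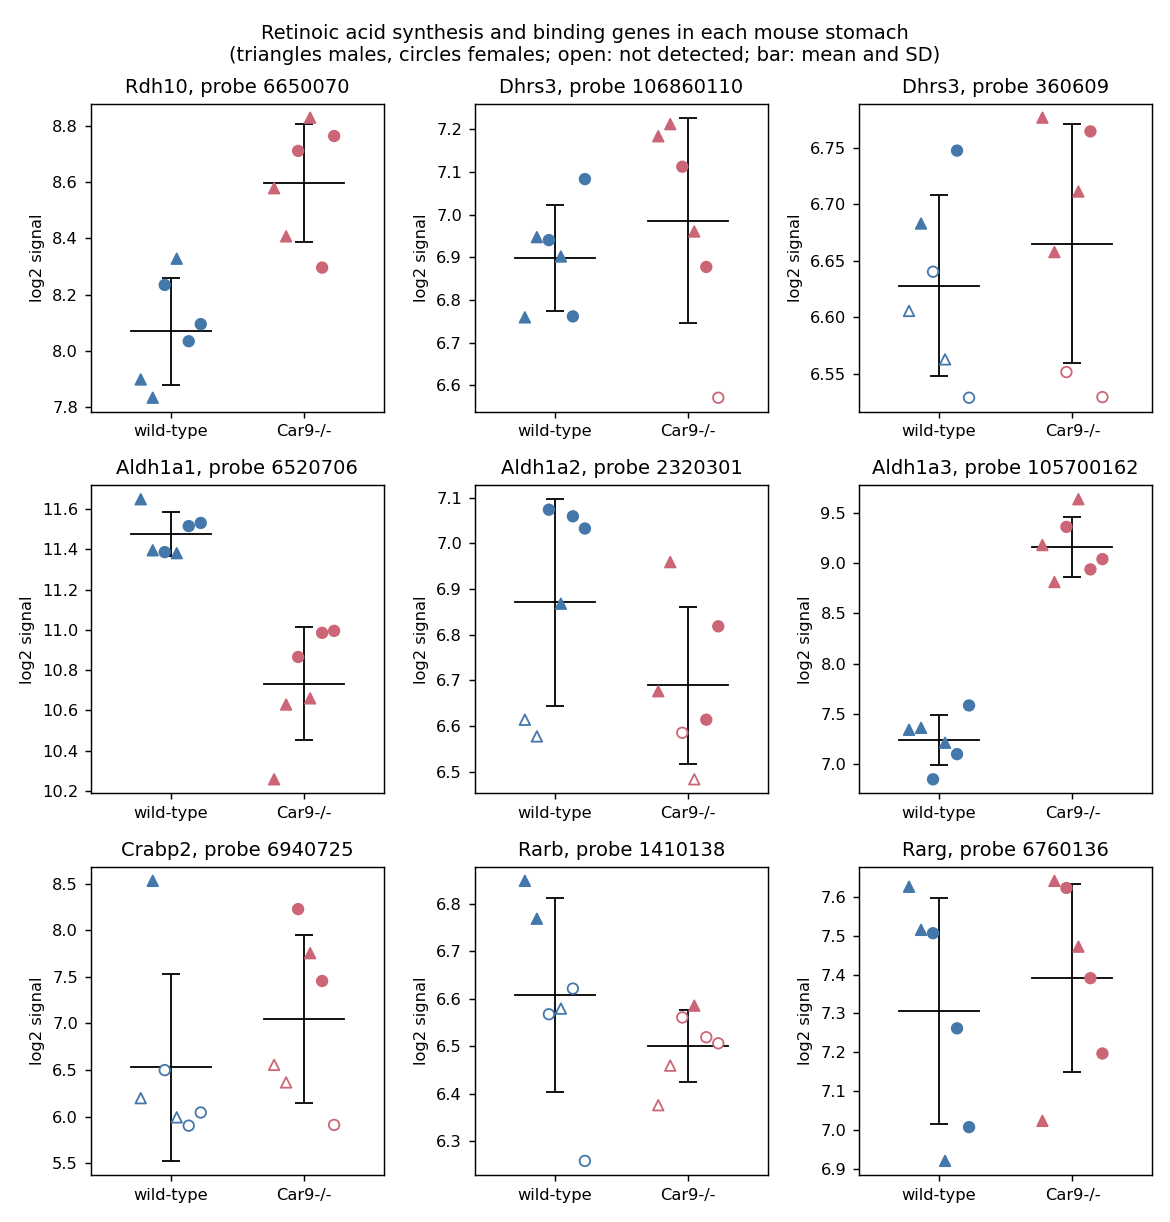
Log2 signal (vertical axis, a separate range for each probe) of the 9 tested probes in 6 wild-type and 6 Car9-/- mice, with the mean and SD of each genotype. Aldh1a1 (10.26 to 10.995 in Car9-/- mice, 11.38 to 11.65 in wild-type mice) separates the genotypes without overlap. So does Aldh1a3 (8.81 to 9.64 and 6.85 to 7.58), on which the list was selected.

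Rdh10 encodes the dehydrogenase that makes most of the retinaldehyde of the mouse embryo. Its log2 signal was 8.58, 8.41, 8.71, 8.83, 8.30 and 8.76 in Car9-/- mice 1 to 6 and 7.90, 7.83, 8.23, 8.33, 8.03 and 8.09 in wild-type mice 1 to 6. Only Car9-/- mouse 5, the lowest of its genotype, lay below the highest wild-type mouse, mouse 4. Car9-/- mice averaged 8.60 ± 0.21 (SD, n = 6) and wild-type mice 8.07 ± 0.19 (SD, n = 6). The difference of 0.53 (standard error 0.11, 95% interval 0.29 to 0.77), a 1.44-fold rise, passed the test (adjusted p = 0.0127 from limma). It was 0.59 in males and 0.47 in females.

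The call of Rdh10 was lost with the level of exocrine pancreas genes as a covariate (0.62, adjusted p = 0.063 from limma). It was also lost when wild-type mice 4, 5 and 6 were left out together, an alternative chosen after seeing the data (0.61, adjusted p = 0.0553 from limma). In both fits the difference itself was not smaller.

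Dhrs3, the short-chain dehydrogenase that returns retinaldehyde to retinol, was dim at both of its probes. Probe 106860110 was detected in 5 Car9-/- and 6 wild-type mice, and its signals ranged from 6.57 to 7.21 in Car9-/- mice and from 6.76 to 7.08 in wild-type mice. Probe 360609 was detected in 4 and 2 mice and ranged from 6.53 to 6.78 and from 6.53 to 6.75. The genotypes overlapped at both. The differences were 0.09 (95% interval -0.14 to 0.32, adjusted p = 0.63 from limma) and 0.04 (95% interval -0.10 to 0.17, adjusted p = 0.74 from limma).

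Of the retinaldehyde dehydrogenases, Aldh1a1 was lower in Car9-/- mice and Aldh1a2 did not pass. Aldh1a3, on which the list was selected, is described without a test. Aldh1a1, a cytosolic enzyme that also handles other aldehydes, had log2 signals of 10.26, 10.63, 10.87, 10.66, 10.99 and 10.995 in Car9-/- mice 1 to 6. In wild-type mice 1 to 6 it had 11.65, 11.40, 11.39, 11.38, 11.52 and 11.53. The genotypes did not overlap, which was true of 4.54% of all tested probes in either direction, and Car9-/- mouse 1 was the lowest of the 12. The mean was 10.73 ± 0.28 (SD, n = 6) against 11.48 ± 0.11 (SD, n = 6). Aldh1a1 was thus 1.68-fold lower in Car9-/- mice, a log2 difference of -0.75 (standard error 0.12, 95% interval -0.997 to -0.49, adjusted p = 0.0047 from limma).

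With the level of exocrine pancreas genes as a covariate, the difference of Aldh1a1 was -0.72 and its adjusted p from limma was 0.0609. It passed in the other 26 of 27 alternative fits, with differences from -0.80 to -0.50 over the 27.

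Aldh1a2, the enzyme that supplies retinoic acid in much of the mouse embryo and in mesothelium, was detected in 4 mice of each genotype. Its log2 signal ranged from 6.48 to 6.96, with a median of 6.65, in Car9-/- mice and from 6.58 to 7.07, with a median of 6.95, in wild-type mice. The ranges overlapped, and the difference of -0.18 (95% interval -0.42 to 0.06) did not pass (adjusted p = 0.308 from limma).

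Aldh1a3, the retinaldehyde dehydrogenase known from the eye and nasal region of the mouse embryo, was measured by 3 probes, of which 1 was detected. Probe 105700162, designed on the cDNA AK043530, was detected on all 12 arrays. Its log2 signal was 9.18, 8.81, 9.36, 9.64, 8.94 and 9.04 in Car9-/- mice 1 to 6 and 7.34, 7.36, 6.85, 7.21, 7.10 and 7.58 in wild-type mice 1 to 6. The lowest Car9-/- mouse, mouse 2, lay above the highest wild-type mouse, mouse 6. The means were 9.16 ± 0.30 (SD, n = 6) and 7.24 ± 0.25 (SD, n = 6), a difference of 1.92 or 3.79-fold, on which the list had been selected. The difference ran from 1.83 to 2.48 over 27 alternative fits, with the highest value under neqc, which subtracts background. As these fits use the mice and the value that selected the list, the range is a description and no support.

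The other probes of Aldh1a3 were detected on 0 of the 12 arrays. Probe 2100270, designed on the reference transcript NM_053080, had log2 signals of 6.02 to 6.23 in Car9-/- mice and 5.85 to 6.00 in wild-type mice. These did not overlap either, but none met the detection threshold, with detection p from 0.39 to 0.98. Probe 104780300, on the cDNA AK086764, differed by -0.006. The high values of Aldh1a3 thus rest on 1 probe, and which part of the gene it reads is not given in the tables used here.

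**Figure D2:**
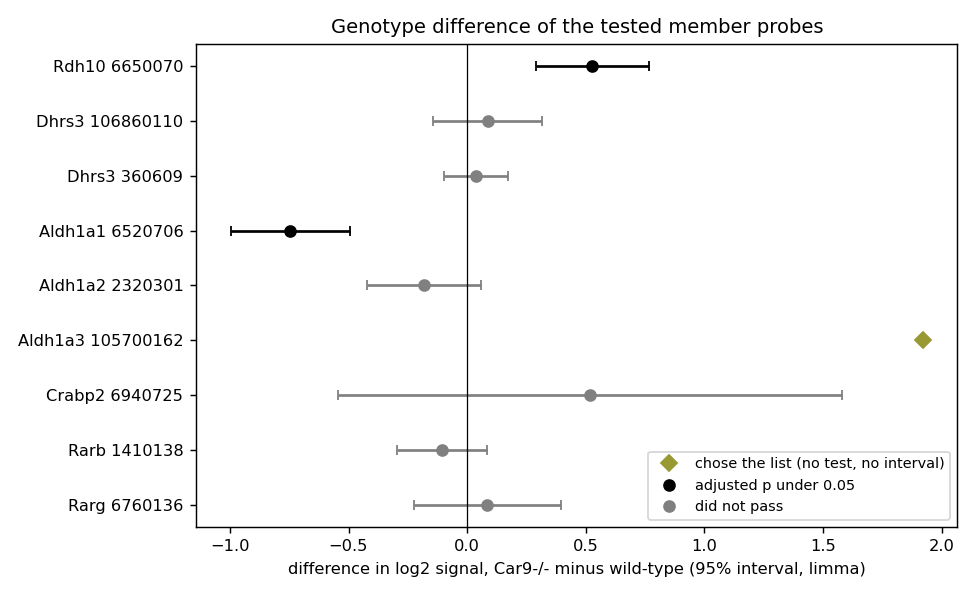
Difference in log2 signal between Car9-/- and wild-type mice (horizontal axis) for the 9 tested probes, with 95% intervals from limma except for Aldh1a3, which chose the list. The intervals of Rdh10 (0.29 to 0.77) and Aldh1a1 (-0.997 to -0.49) lie apart from 0.

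Of the retinoic acid carriers, Crabp1 was detected on none of the arrays at its probe 450278. Crabp2, which carries retinoic acid to its receptors, was detected in Car9-/- mice 3, 4 and 5, at log2 signals of 8.23, 7.75 and 7.45, and in wild-type mouse 2, at 8.53. In the other 8 mice it lay between 5.90 and 6.55. High and low mice were thus found in both genotypes. The difference of 0.52 had a 95% interval from -0.54 to 1.58 and did not pass (adjusted p = 0.523 from limma).

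The mice in which Crabp2 was detected were the 4 with the highest mean level of 18 tested genes of stratified squamous epithelium, the lining of the mouse forestomach. That level is given in log2 units from the mean of the 12 mice. It was 2.41, 2.15 and 1.39 in Car9-/- mice 3, 4 and 5 and 2.64 in wild-type mouse 2. The 12 mice fell into separate clusters by it, from -2.32 to -1.97 in 5 mice (Car9-/- mice 1 and 6, wild-type mice 4, 5 and 6) and from 0.47 upwards in 7, so that no correlation is given. The genotypes overlapped in this level, and 1 of the 18 genes rose in Car9-/- mice (5.56%) and 0 fell. Over all tested probes 5.34% were higher and 5.25% lower. The part of squamous tissue in the signal of Crabp2 was not tested beyond the fit with that level as a covariate, in which Crabp2 did not pass. In such whole-tissue RNA, fewer cells of a type and less RNA per cell cannot be told apart.

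**Figure D3:**
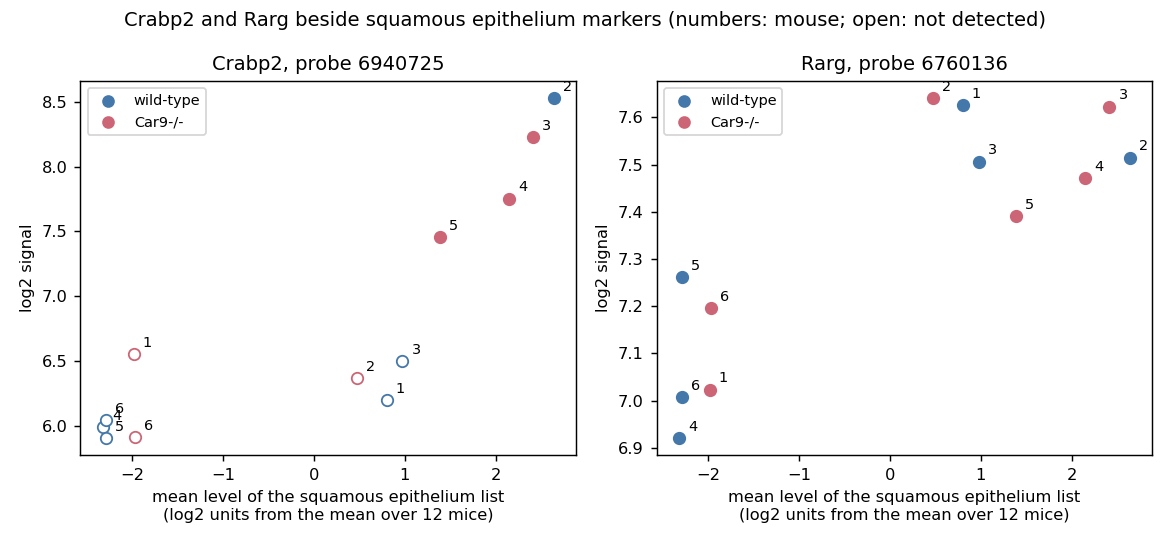
Log2 signal of Crabp2 and of Rarg (vertical axes) against the mean level of 18 squamous epithelium genes in log2 units (horizontal axes), 1 point per mouse. Crabp2 was detected in the 4 mice with levels of 1.39 to 2.64, and Rarg was lowest in the 5 mice with levels under -1.9.

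Rarg, the retinoic acid receptor known from skin and other squamous epithelia, was detected on all 12 arrays. Its log2 signal ranged from 7.02 to 7.64 in Car9-/- mice and from 6.92 to 7.63 in wild-type mice, and the difference of 0.09 (95% interval -0.23 to 0.40) did not pass (adjusted p = 0.74 from limma). In the 5 mice of low squamous level it was 7.02 and 7.20 (Car9-/- mice 1 and 6) and 6.92, 7.26 and 7.01 (wild-type mice 4, 5 and 6). In the other 7 it was 7.39 to 7.64, with no overlap. Rarg also moved with the mean level of 8 smooth muscle genes, of which 0 passed the genotype test. That level was -0.71, 0.09, -0.07, -0.20, -0.22 and -0.27 in Car9-/- mice 1 to 6, and Rarg had the same order in these 6 mice. It was 0.71, 0.20, 0.64, -0.14, -0.01 and -0.01 in wild-type mice 1 to 6, of which mice 1, 2 and 3 also had the highest Rarg signals. The part of either tissue in the signal of Rarg was not tested beyond the fit with the squamous level as a covariate, in which Rarg did not pass.

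Rarb, a receptor gene that retinoic acid itself induces in many cells, was near background. Probe 1410138 was detected in 1 Car9-/- and 2 wild-type mice, and its log2 signal ranged from 6.38 to 6.59 and from 6.26 to 6.85. The difference of -0.11 (95% interval -0.30 to 0.09) did not pass (adjusted p = 0.463 from limma). Probes 430139 and 103060180 were detected on no array.

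The element through which retinoic acid is known to induce Rarb is a direct repeat of a receptor half-site with a spacer of 5 bases. It was sought on both strands of the RefSeq promoter windows of mouse build GRCm38.p6, which run from 250 bases before to 50 bases after each gene start. The half-site was allowed to read AGGTCA or AGTTCA or, with another first base, GGGTCA or GGTTCA. Windows were found for 6 of the 9 genes (Aldh1a1, Aldh1a2, Dhrs3, Crabp1, Rarb and Rarg). The repeat was present in 32 of all 32851 windows, or 0.0974%, and among the 6 genes in that of Rarb. Repeats with a spacer of 1 or 2 bases, which were sought too, were present in 73 (0.222%) and 88 windows (0.268%) and in none of the 6 genes. The repeat with a spacer of 5 bases was also present in the window of Cyp26a1, a gene of retinoic acid breakdown, whose probes were detected on 0 arrays. Both stretches are shown because these genes are the textbook readouts of the pathway, with the half-sites in capitals; the first is read on the minus strand at chr14:16575493-16575549 and the second on the plus strand at chr19:37697756-37697812, where the half-sites stand in reverse complement.
Rarb: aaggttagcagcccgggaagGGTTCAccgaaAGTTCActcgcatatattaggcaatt
Cyp26a1: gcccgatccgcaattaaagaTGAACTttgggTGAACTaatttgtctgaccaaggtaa
The Rarb repeat begins 53 bases before the gene start and that of Cyp26a1 32 bases before it. Rarb did not pass the test above, and Cyp26a1 was not tested. The letters do not show that a receptor binds there in the stomach.

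Sex was compared in the same 12 mice, a contrast that did not choose the list. Of the 9 tested probes, 0 differed between males and females (limma, threshold as above). Of the 8 probes of genes other than Aldh1a3, 0 had a genotype difference that varied with sex at that threshold. Over all tested probes these shares were 0.0289% and 0.0145%. At an unadjusted p under 0.05 from limma there were 1 of the 9 and 2 of the 8 probes, and 1061 and 1920 of all 20751. The difference of Aldh1a1 was -0.96 in males and -0.53 in females (interaction -0.43, adjusted p = 0.456 from limma). That of Aldh1a2 was 0.02 in males and -0.38 in females (interaction 0.40, adjusted p = 0.532 from limma). The difference of Aldh1a3, selected for being present in every mouse, was 1.90 in males and 1.94 in females and is given without a test.

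A wider list of 134 retinoid pathway symbols, older names included, was set beside the 9 genes. It had probes for 116 symbols and tested probes for 81, each taken at its brightest tested probe. Of the 81, 2 were higher (2.47%) and 9 lower (11.1%) in Car9-/- mice and 70 did not pass. The shares over all tested probes were 5.34% higher and 5.25% lower, counted by probe and not by gene. Of the 2 higher genes, Rdh16 met the detection filter only through Car9-/- mice. The median difference of the 81 was -0.08. With median scaling of the arrays instead of quantile normalization, 13 were higher and 6 lower, a scaling under which the median of all tested probes moved to 0.11. The share of all probes called under that scaling is not given here. With the level of exocrine pancreas genes as a covariate 0 were higher and 0 lower. The 11 genes kept their signs in that fit, with differences such as -1.03 for Ttr, -1.06 for Ces1d, -0.90 for Lpl, -0.84 for Rdh7, -0.45 for Hoxb2 and 0.45 for Bhlhe40, and adjusted p-values from limma of 0.058 (Hoxb2) to 0.25 (Dhrs7).

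Among 12 genes of retinoid uptake, storage and release, 4 fell (33.3%) and 0 rose, beside 5.25% and 5.34% of all tested probes. Lpl, the lipoprotein lipase, was 1.15 lower on the log2 scale (13.23 ± 0.41 in wild-type and 12.08 ± 0.43 in Car9-/- mice, SD, n = 6 each, adjusted p = 0.0093 from limma). Ttr, the plasma partner of retinol-binding protein, fell by 1.09 (adjusted p = 0.0288 from limma) and Ces1d, a carboxylesterase, by 1.08 (adjusted p = 0.0191 from limma). Rbp7, a cellular retinol-binding protein, fell by 0.65 (adjusted p = 0.0195 from limma). The genotypes overlapped in each of the 4 genes, in Lpl only just, with 12.60 in the highest Car9-/- mouse and 12.59 in the lowest wild-type mouse. Fat tissue and blood vessels are known to express Lpl and Rbp7. The adipose level was -0.51 to -0.01 in Car9-/- and -0.69 to 1.10 in wild-type mice, with 0 of 7 tested adipose genes passing. These genes went both ways. Adipoq had -1.90 (adjusted p = 0.163 from limma), Car3 -1.89 (0.164), Cidec -0.34 and Acvr1c -0.26, while Pparg had 0.62, Cidea 0.22 and Lipe 0.16. The study also reported Adipoq and Car3 as lower by QRT-PCR. The endothelial level was -0.32 to -0.05 in Car9-/- and 0.0002 to 0.35 in wild-type mice, with 3 of 6 genes lower. With the adipose level as a covariate, Lpl (-1.06, adjusted p = 0.031 from limma) and Ces1d (-1.10, 0.044) passed, while Rbp7 (-0.61, 0.057) and Ttr (-1.18, 0.0502) did not. The part of fat in these falls was not tested beyond the fit with that mean level, and the part of blood vessels was not tested.

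The receptor of retinol-binding protein, Stra6, was detected on at most 1 array. Lrat, which esterifies retinol for storage, and Rbp4 were detected on 0 arrays.

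Among 18 dehydrogenases and reductases of retinol and retinaldehyde outside the 9 genes, 1 rose (5.56%) and 2 fell (11.1%). Over all tested probes 5.34% were higher and 5.25% lower. Rdh7 fell by 1.12 (adjusted p = 0.0090 from limma), from 9.20 to 10.23 in wild-type mice to 8.13 to 9.26 in Car9-/- mice, with a slight overlap. Rdh16, the 1 that rose (0.48, adjusted p = 0.0293 from limma), was detected in 6 Car9-/- but 2 wild-type mice. It met the detection filter only through the genotype in which it was higher, so its call is a description and no support. Dhrs7 fell by 0.42 at its brighter probe (adjusted p = 0.0473 from limma) and had -0.35 at the other (adjusted p = 0.255 from limma). The alcohol dehydrogenase Adh7, which oxidizes retinol in the stomach lining, was bright in all mice, with 13.69 to 14.24 in Car9-/- and 13.59 to 14.40 in wild-type mice and a difference of 0.05 (adjusted p = 0.836 from limma). Adh1 had -0.59 (adjusted p = 0.339 from limma), and Adh4 was detected on 0 arrays.

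Among 10 other aldehyde dehydrogenases and aldehyde oxidases, Aldh1l1, a folate enzyme, fell by 0.76 (adjusted p = 0.0089 from limma) and by 0.63 at another probe (adjusted p = 0.0327 from limma), while its remaining probe had -0.12 (adjusted p = 0.271 from limma). No other gene of that list passed, so that 1 of 10 was lower (10%), beside 5.25% of all tested probes. Of 3 tested breakdown genes 0 passed, and Cyp26b1, which clears retinoic acid, had -0.33 (adjusted p = 0.796 from limma) with values of 6.86 to 10.52 in Car9-/- and 7.38 to 10.68 in wild-type mice. Cyp26c1 was matched by no probe in the annotation used here.

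Of 14 further receptors, co-regulators and carriers, 0 passed. The receptor partners Rxra and Rxrb had differences of 0.08 (adjusted p = 0.664 from limma) and -0.04 (adjusted p = 0.795 from limma), Rara was detected on 1 array and Rxrg on 0. Fabp5, a fatty acid carrier that also binds retinoic acid, had 0.61 (adjusted p = 0.176 from limma). With the squamous level as a covariate Fabp5 had 0.40 and passed (adjusted p = 0.0098 from limma). That was the only 1 of 27 alternative fits in which it passed.

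Of 24 known retinoic acid target genes, 2 fell (8.33%) and 1 rose (4.17%), near the 5.25% and 5.34% of all tested probes. Hoxb2 fell by 0.42, from 8.23 to 8.56 in wild-type mice to 7.87 to 8.16 in Car9-/- mice without overlap (adjusted p = 0.0062 from limma), and Hoxa5 fell by 0.63 (adjusted p = 0.0267 from limma). Bhlhe40, a transcriptional repressor, rose by 0.44 (adjusted p = 0.0279 from limma). Under median scaling of the arrays, where all tested probes had a median of 0.11, Hoxb2 had -0.24 (adjusted p = 0.0501 from limma) and Hoxa5 -0.41 (0.12), and Dhrs7 of the dehydrogenases had -0.18 (0.356). These 3 calls were lost there. With the adipose level as a covariate, Bhlhe40 (0.42, adjusted p = 0.074 from limma), Rdh16 (0.38, 0.094) and Dhrs7 (-0.42, 0.095) did not pass. Tgm2, the tissue transglutaminase, had -0.24 (adjusted p = 0.338 from limma) and Rarres2, the chemerin gene, had -0.22 (adjusted p = 0.266 from limma). With 1 mouse left out in turn, Ttr passed in 6 of 12 fits, Hoxa5 in 7, Rdh16 in 7, Bhlhe40 in 5 and Dhrs7 in 3, while the adjusted p from limma reached 0.069, 0.063, 0.068, 0.060 and 0.105. The other 6 of the 11 genes passed in all 12.

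**Figure D4:**
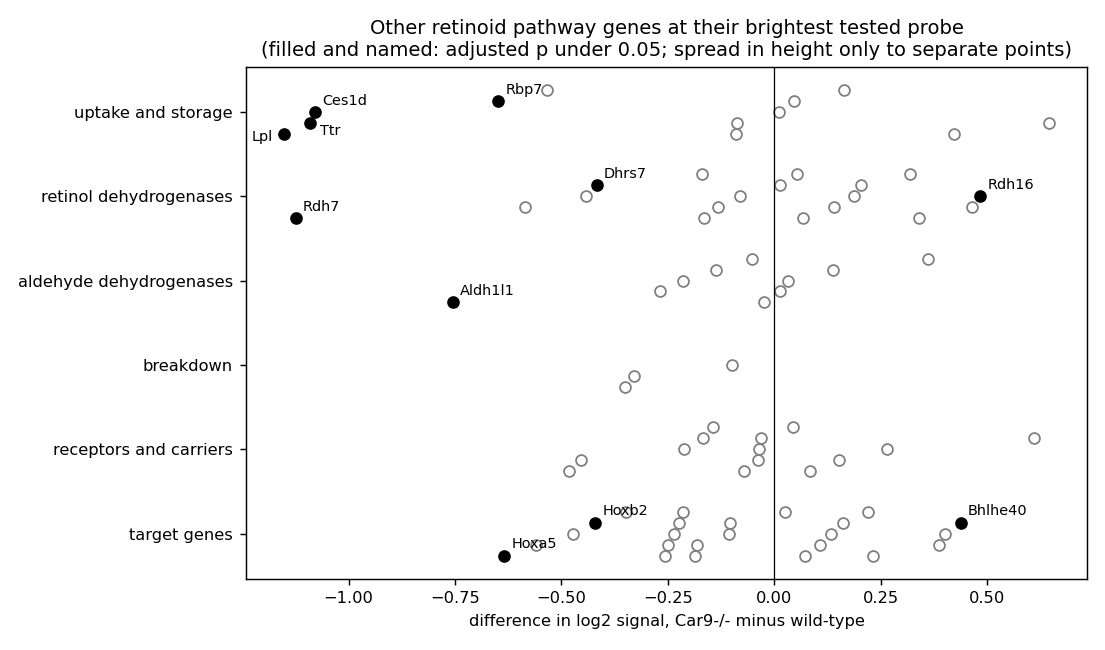
Difference in log2 signal between Car9-/- and wild-type mice (horizontal axis) of the 81 tested genes of the wider retinoid lists, by role. Filled points are the 2 genes that rose (Rdh16 0.48, Bhlhe40 0.44) and the 9 that fell, from -0.42 for Dhrs7 to -1.15 for Lpl. Rdh16 met the detection filter only through Car9-/- mice.

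Aldh1a1, Aldh1a3 and Rdh10 were also set against every other tested probe with 1 gene symbol by the correlation of their values over the 12 mice, each centred on its genotype mean. The 5 closest to Aldh1a3 were Ablim1 (r = 0.93), Osmr (0.90), Tspan14 (0.89), Ccr7 (0.86) and Fem1b (0.86). Those closest to Aldh1a1 were Fxr2 (0.95), Kif3c (0.94), the proton pump gene Atp4a (0.94), the chitinase gene Chia1 (0.90) and Araf (0.90). Those closest to Rdh10 were Gnaq (0.89), Cr1l (0.88), Nrp2 (0.87), Slirp (0.86) and Med4 (0.86). None of the 9 genes was among the 5 closest of these 3. For Chia1 the correlation with Aldh1a1 was 0.96 in the 6 Car9-/- mice and 0.21 in the 6 wild-type mice. The Atp4a probe was 105910097, the dimmer of 2 tested. With the mean level of 8 parietal cell genes, centred alike, Aldh1a1 had a correlation of 0.36. Each set was picked as the highest among those probes and is given as a description, with no p.

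The level of exocrine pancreas genes lay beside these results in a way that the design does not separate from genotype. It was -1.05 to -0.51 in Car9-/- mice and -0.44 to 2.78 in wild-type mice, without overlap, and highest in wild-type mice 4 (2.78) and 6 (2.47). Of 20 tested pancreas genes 3 fell (15%) and 0 rose, beside 5.25% and 5.34% of all tested probes. The log2 signal of Prss1 fell by 3.40 (adjusted p = 0.0034 from limma). Both Rdh10 and Aldh1a1 passed the test when wild-type mice 4 and 6 were left out.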

How the data were processed

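Stomach RNA of 6 Car9-/- and 6 wild-type mice was run on 12 Illumina Mouse-6 arrays, grouped by the genotype in their labels. The authors deposited the signal intensity of 46643 probes, read with BeadStudio without normalization or background subtraction, with a detection p-value per probe and array. The authors also deposited quantile-normalized log2 values, which differed from those used here by at most 0.0224. Here the intensities were log2-transformed and quantile-normalized, so that folds of dim probes are understated.

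Probes detected (p under 0.01) on 3 or more arrays, 20751 in all, were fitted with limma 3.58.1 (lmFit and eBayes) in R 4.3.3, with Benjamini-Hochberg adjustment at 0.05. The script was tested on simulated data. Genes were named from the platform annotation, which gives 1 symbol for 32794 probes. A list's level is the mean of its tested genes, each centred over the 12 mice. Promoter sequences came from RefSeq. Figures were drawn with matplotlib.

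Members and lists were chosen with earlier results of these data known. The text names Car9, the 9 genes, every passing gene of the wider lists, a fixed set of pathway genes whatever they did (1 is not reported here), the 5 closest probes of Aldh1a3 and of each passing gene, and the leading markers. Alternatives were neqc (offset 16), the authors' values, median scaling, all or only brighter probes, sex and age, the replicate number, array weights, an intensity trend, 3 tissue levels, the probe with the lowest p, the study's SD filter and mice left out. A slide block could not be fitted because the column headers give no slide, and the labels name no batch. The number of arrays limits the precision.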

Additional observations from a re-analysis of the deposited data

Results flagged for a closer look

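In 3 of 56 groups of 6 mice checked, 1 mouse stood apart from the other 5 by more than Dixon's critical value, which chance gives in about 1 of 20 groups. Crabp2 was 8.53 in wild-type mouse 2, against 5.90 to 6.50 in the others, and that mouse also had the highest squamous level of the 12. Adh1 was 8.84 in Car9-/- mouse 5, against 10.65 to 10.99 in the others. Rxra was 7.41 in wild-type mouse 3, against 6.79 to 6.99 in the others.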

How the results depend on the processing

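Of the genes other than Aldh1a3, the probe that rose (Rdh10) and the one that fell (Aldh1a1) were each called in the alternatives run, except as follows. With the pancreas level as a covariate 0 were higher and 0 lower, and without wild-type mice 4, 5 and 6 together 0 were higher; the cause was not tested. Leaving out 1 mouse kept both calls in 12 of 12 fits. Counts by sex and for the interaction stayed at 0 in every alternative that could be fitted. The study's SD filter kept 0 of the 14 probes, so it gave no value for them.

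The counts of wider list genes moved more. The shares of all tested probes called in the same fits are not given here. The counts alone therefore do not tell a change of these genes from a change over all probes. Instead of 2 higher, there were 13 with median scaling, 5 with array weights, 6 with the squamous level, 1 with the adipose level, 1 without wild-type mice 4, 5 and 6, and 0 with the pancreas level, without wild-type mice 4 and 6, or after the SD filter. Instead of 9 lower, there were 15 with sex and age as covariates, 15 with array weights, and 0 with the pancreas level, without wild-type mice 4, 5 and 6, or after the SD filter. Leaving out 1 mouse gave 0 to 4 higher (0 without Car9-/- mouse 1; 1 without each of Car9-/- mice 2, 3 and 4 and wild-type mice 4 and 5; 4 without Car9-/- mouse 5) and 6 to 14 lower (14 without wild-type mouse 3). With the replicate number as a block 0 were higher and 3 lower, while Rdh10 and Aldh1a1 kept their calls. Between mice of the same number, 1 of 6 correlations was above 0.1, and 0 of 6 mice lay closest to their own number. These values show no likeness by number as a whole but cannot exclude a pairing in handling. Mice of a number share their sex, so sex could not be fitted with that block.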

Other observations

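The study kept the probes of highest SD over the 12 arrays before testing. With its percentage, 280 probes stay, the lowest with an SD of 1.045 on the log2 scale. The detected probe of Aldh1a3 had an SD of 1.037 and ranked 284, and Crabp2 ranked 337, so that neither was kept here. The SD named in the study's methods is higher than that of the cut run here. Aldh1a1 ranked 1719 and Rdh10 ranked 3247.

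Of the endoderm regulator Gata6, a second probe, 106450408, was higher in Car9-/- mice by 0.62 (adjusted p = 0.0216 from limma), a probe chosen after its values were seen. Its brighter probe, 1770010, had 0.07 (adjusted p = 0.682 from limma).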
